A study of Mus musculus with 6 samples.

Results

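The genes described here are 10 immediate early response genes, Fos, Jun, Junb, Atf3, Egr1, Klf6, Ier2, Ier3, Zfp36 and Dusp1, measured in mouse liver. They were chosen by name, with earlier results of these data known. A gene's members on the array are all probe sets that the platform annotation gives to that 1 symbol, 15 probe sets in all. The probe set with the highest mean over the 6 arrays stands for its gene, and the others are given beside it. The 10 genes are among 18193 genes with a probe set of their own, of which 12705, including 9 of the 10, were bright enough to be tested. Expression was measured on 6 Affymetrix mouse genome arrays. The labels number the samples without saying that each is a separate animal; each array is taken here as 1 mouse, and p-values measure the spread between these samples. All mice were male and 3 months old, and the background given for all of them is C57BL6/J. They had eaten a high fat diet (HFD), with 21% fat and 0.15% cholesterol, for 4 weeks from the age of 8 weeks. The Retnla-Tg group (Tg 5, Tg 6 and Tg 7) carried a transgene for Retnla, which encodes a secreted protein of the resistin family, and the Retnla-non-Tg group (non-Tg 1, non-Tg 2 and non-Tg 3) did not. Which promoter drove the transgene, how many founder lines there were and at what hour livers were taken is not given in the sources used here. Mice were killed by cervical dislocation. The comparison asks whether these genes differ with the transgene in the livers of mice on this diet.

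Immediate early genes are switched on within minutes of a stimulus, without new protein synthesis, because the factors that turn them on, such as SRF with its ELK partners and CREB, are already present and are activated by phosphorylation. Many of the products are transcription factors, and others end the response, by removing phosphate from MAP kinases or by marking short-lived mRNAs for decay. In liver they are known from the hours after partial hepatectomy, from injury and from hormones, and their mRNAs are short-lived, so that a level in a single tissue sample reflects the time just before it was taken.

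The stretch before the transcription start is shown for Dusp1 and Zfp36, the members with the smallest p-values, and for Fos and Jun, which together form the AP-1 transcription factor. Sequences are RefSeq's for build GRCm38.p6, 250 bases up to the start, 5′ to 3′ on the strand of the gene. Capitals mark every match to the motifs searched, on either strand. The first of these was TGACGT, the core of the cAMP response element (CRE) that CREB binds. TGACGTCA is the full CRE, which contains that core. TGACNTCA is a site of ATF and Jun dimers, and its forms include the full CRE. TGANTCA, with N as any base, is a looser pattern whose forms include the AP-1 site. GCGNGGGCG is the site of the EGR family, and the CArG box is the site of SRF. The Dusp1 window is chr17:26508473-26508722 on the minus strand, that of Zfp36 chr7:28379229-28379478 on the minus strand, that of Fos chr12:85473640-85473889 on the plus strand, and that of Jun chr4:95052223-95052472 on the minus strand.
Dusp1: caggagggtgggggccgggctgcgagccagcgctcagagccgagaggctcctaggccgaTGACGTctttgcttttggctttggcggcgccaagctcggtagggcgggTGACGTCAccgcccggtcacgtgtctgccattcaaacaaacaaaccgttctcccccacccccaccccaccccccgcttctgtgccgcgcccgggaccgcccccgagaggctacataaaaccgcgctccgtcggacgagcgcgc
Zfp36: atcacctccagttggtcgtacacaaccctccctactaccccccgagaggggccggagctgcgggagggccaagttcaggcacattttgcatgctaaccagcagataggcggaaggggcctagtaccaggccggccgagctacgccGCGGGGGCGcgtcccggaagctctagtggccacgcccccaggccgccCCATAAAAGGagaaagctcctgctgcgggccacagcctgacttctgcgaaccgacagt
Fos: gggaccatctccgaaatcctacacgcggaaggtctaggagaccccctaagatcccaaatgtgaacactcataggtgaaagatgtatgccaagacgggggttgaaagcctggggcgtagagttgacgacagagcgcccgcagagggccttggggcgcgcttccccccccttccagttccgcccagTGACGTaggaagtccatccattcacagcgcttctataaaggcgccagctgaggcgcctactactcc
Jun: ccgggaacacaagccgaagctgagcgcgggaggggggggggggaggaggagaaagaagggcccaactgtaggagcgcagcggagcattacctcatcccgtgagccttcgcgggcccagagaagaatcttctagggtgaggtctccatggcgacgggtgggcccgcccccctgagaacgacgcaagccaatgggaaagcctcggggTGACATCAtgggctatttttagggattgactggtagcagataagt

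Windows of 8 of the 10 members were searched; Egr1 and Ier2 were not analysed here. Dusp1 held a full CRE from 143 to 136 bases before the start and a further core from 191 to 186. The full CRE stood in 1.55% of 32807 windows of the same length and the core in 6.47%. Fos held the core from 66 to 61 bases before the start, and Atf3 held it on the opposite strand from 8 to 3. Jun and Klf6 each held TGACATCA, a form of TGACNTCA, from 45 to 38 and from 119 to 112 bases before the start. TGACNTCA was found in 7.50% of all windows. Zfp36 held a CArG box, found in 1.47% of windows, from 58 to 49 bases before the start, and an EGR site, found in 4.70%, from 105 to 97. TGANTCA, the looser pattern that includes the AP-1 site, was found in 6.76% of windows and in 0 of the 8. The windows of Junb and Ier3 held none of these motifs. A match is a description of the letters and not of binding.

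None of the 10 genes passed the test between Tg and non-Tg livers. The test was limma with adjustment by Benjamini and Hochberg over all 12705 genes at 0.05. It was passed by 2 genes, Retnla and Nnt, or 0.0157%, both higher in Tg livers. Whether the groups differed in genetic background as well as in the transgene was not tested. The 3 members with an unadjusted p under 0.05 were Zfp36, Dusp1 and Egr1, all higher on average in Tg livers, and 6.05% of all tested genes lay under that p. The means of 8 of the 9 tested members were higher in Tg livers, against 52.1% of all tested genes; with arrays centred on their medians it was 7 of 9, against 40.4%. Their median log2 difference was 0.29, beside 0.01 over all tested genes; with Atf3, too dim to be tested with the rest, the median of the 10 was 0.42. The group means of all 9 tested members lay above the brightness limit in both groups, so none was let in by 1 group alone. The groups did not overlap for 1 member, Zfp36, while 11.7% of all tested genes did not overlap, 6.04% with Tg higher. A difference of at least 1 on the log2 scale was seen for 1 member, Egr1, and for 3.65% of all tested genes. With 3 mice against 3 the exact permutation test cannot give a p below 0.1. Because the members were chosen with earlier results of these data known, the counts and medians set beside all tested genes are descriptions. They do not test the list.

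**Figure D1:**
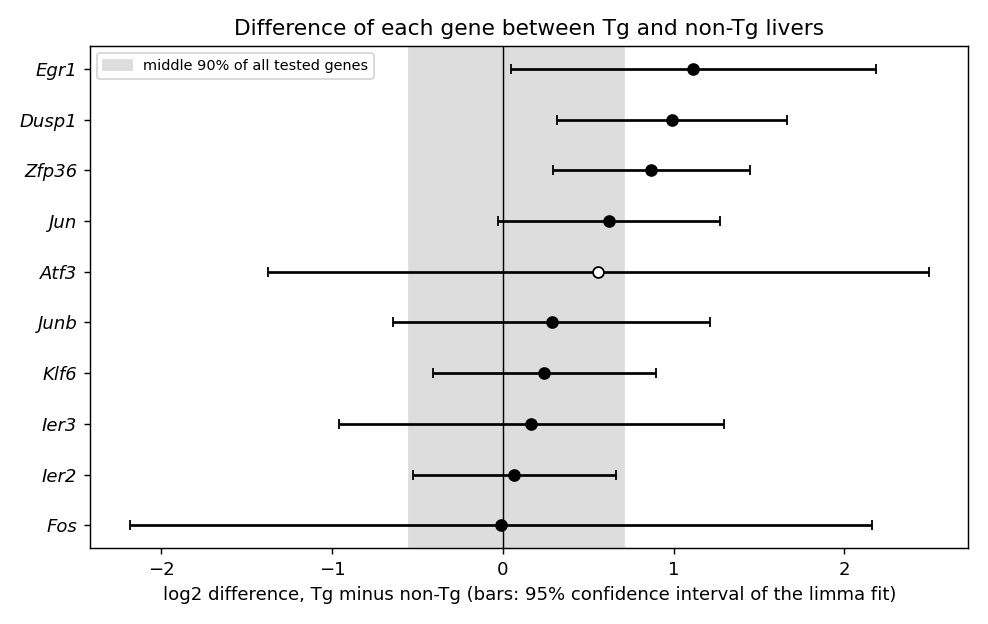
Log2 difference, Tg minus non-Tg, of each of the 10 genes on the horizontal axis, with its 95% confidence interval from the limma fit; the grey band holds the middle 90% of all tested genes, from -0.55 to 0.71, and the open point is Atf3, which lay under the brightness limit. Egr1, Dusp1 and Zfp36 lie to the right of the band with intervals above 0, and Fos lies at -0.01 with an interval from -2.18 to 2.16.

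Among the AP-1 genes, Fos differed more between the mice of 1 group than between the groups. Fos pairs with Jun proteins to bind DNA and is the classic early gene. Its log2 signals were 7.06, 6.61 and 6.29 in non-Tg 1, 2 and 3 and 8.44, 7.56 and 3.93 in Tg 5, 6 and 7. Tg 5 and Tg 6 lay above every non-Tg liver and Tg 7 lay below every other liver. The group means were 6.64 ± 2.39 in Tg and 6.65 ± 0.39 in non-Tg (SD, n = 3 each), a difference of -0.01 ± 0.97 (SE; limma adjusted p = 0.999). Without Tg 7 the difference was 1.35 (limma adjusted p = 0.459), and without Tg 5 it was -0.91. The range of Fos over the 6 arrays, 4.51 on the log2 scale, was wider than that of 99.6% of tested genes.

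Jun, the main partner of Fos, was at 7.81, 8.47 and 8.85 in the non-Tg livers and at 9.43, 8.84 and 8.72 in the Tg livers, in the order of the mice. Tg 5 was the highest and non-Tg 1 the lowest, and non-Tg 3 lay above Tg 6 and Tg 7. The SD was 0.38 in Tg and 0.53 in non-Tg livers (n = 3 each). The difference of the means was 0.62 ± 0.29 (SE), or 1.54-fold with a 95% confidence interval from 0.978 to 2.42 (limma adjusted p = 0.807). Leaving out non-Tg 1 gave 0.34 and leaving out Tg 5 gave 0.41. Its other probe set differed by 0.31 ± 0.26 (SE).

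Junb, a Jun relative that often restrains it, was at 9.38, 8.85 and 7.95 in non-Tg and at 9.73, 9.05 and 8.26 in Tg livers. The values of the groups lay interleaved, with Tg 5 highest and non-Tg 3 lowest. The difference was 0.29 ± 0.41 (SE; limma adjusted p = 0.909), and it changed sign, to -0.07, without Tg 5. Atf3, a stress-induced repressor of the same bZIP class, was at 6.21, 3.18 and 5.79 in non-Tg and at 5.90, 5.28 and 5.67 in Tg livers. Its mean lay under the limit for testing, a log2 signal of 5.63, so its values come from a fit over all 18193 genes: a difference of 0.56 ± 0.87 (SE; limma adjusted p = 0.927). Non-Tg 2 stood apart from the other 5 livers, and without it the difference was -0.38.

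**Figure D2:**
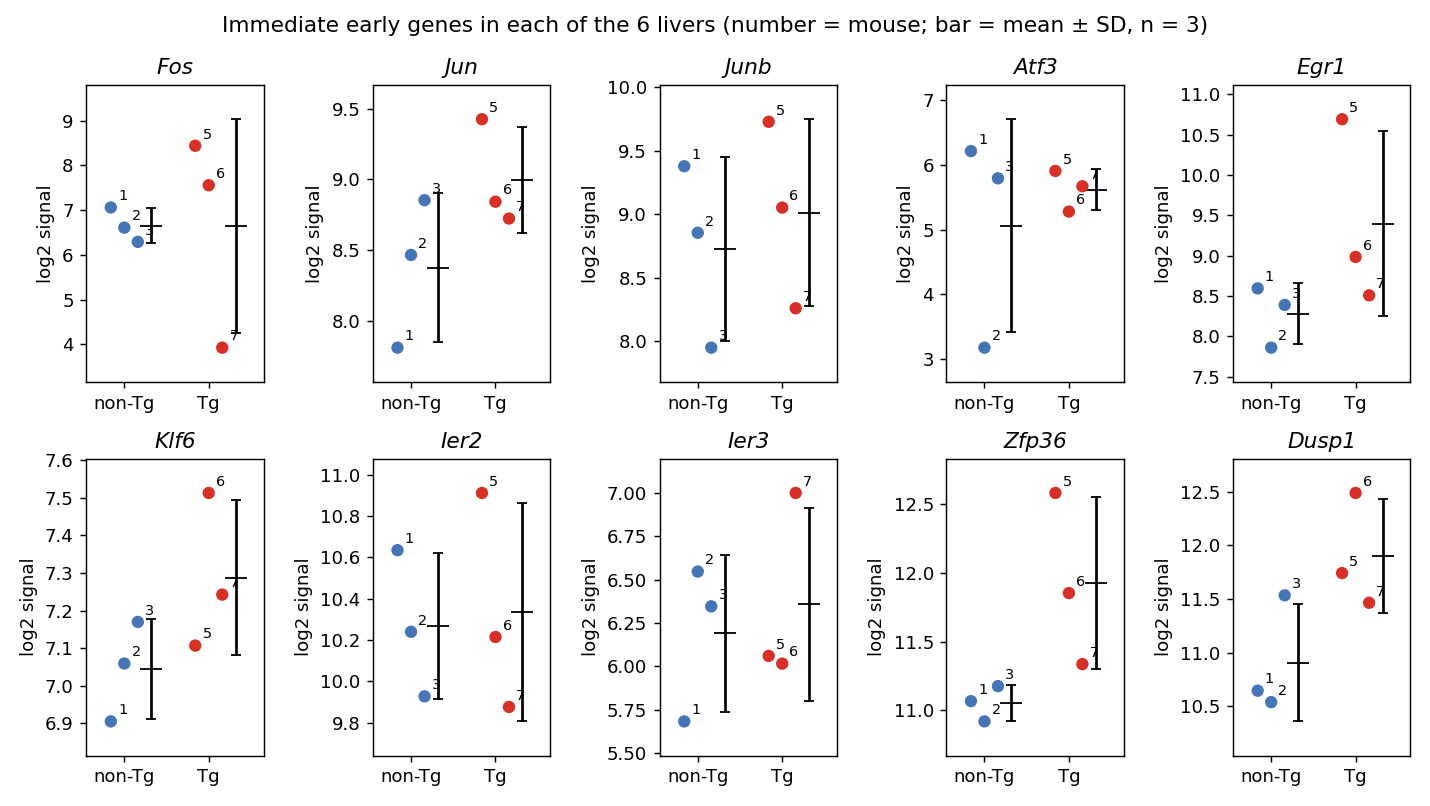
Log2 signal of each gene in each liver, with its own vertical axis for each gene; points carry the number of the mouse, blue for non-Tg and red for Tg, and bars give the mean ± SD (n = 3). Tg 5 is the highest point for Fos, Jun, Junb, Egr1, Ier2 and Zfp36, and Tg 7 lies above all 3 non-Tg livers only for Ier3, Zfp36 and Klf6.

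The zinc finger transcription factor Egr1, which answers growth factor and stress signals through SRF, had the highest mean difference of the 10. It was at 8.59, 7.86 and 8.39 in non-Tg and at 10.69, 8.98 and 8.51 in Tg livers. Tg 5 stood far above the other 5 livers, and Tg 7 lay between non-Tg 1 and non-Tg 3. The means were 9.39 ± 1.15 and 8.28 ± 0.38 (SD, n = 3 each), a difference of 1.11 ± 0.48 (SE), or 2.17-fold with a 95% confidence interval from 1.03 to 4.55 (limma p = 0.0428, adjusted p = 0.807; exact permutation p = 0.2). Without Tg 5 the difference was 0.47, and without Tg 7 it was 1.56.

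Klf6, a Krüppel-like zinc finger factor known from stellate cell and hepatocyte injury responses, varied little on the probe set that stands for it. That probe set was at 6.91, 7.06 and 7.17 in non-Tg and at 7.11, 7.51 and 7.24 in Tg livers, and the difference was 0.24 ± 0.29 (SE; limma adjusted p = 0.884). The other 4 Klf6 probe sets did not follow it, with differences of -0.64 ± 0.57, -0.03 ± 0.42, 0.92 ± 0.88 and 1.70 ± 1.00 (SE), the last of them under the brightness limit. They place different mice on top: Tg 6 was highest on 3 of the 5 probe sets and Tg 5 on 2. The direction of Klf6 thus depended on the probe set.

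**Figure D3:**
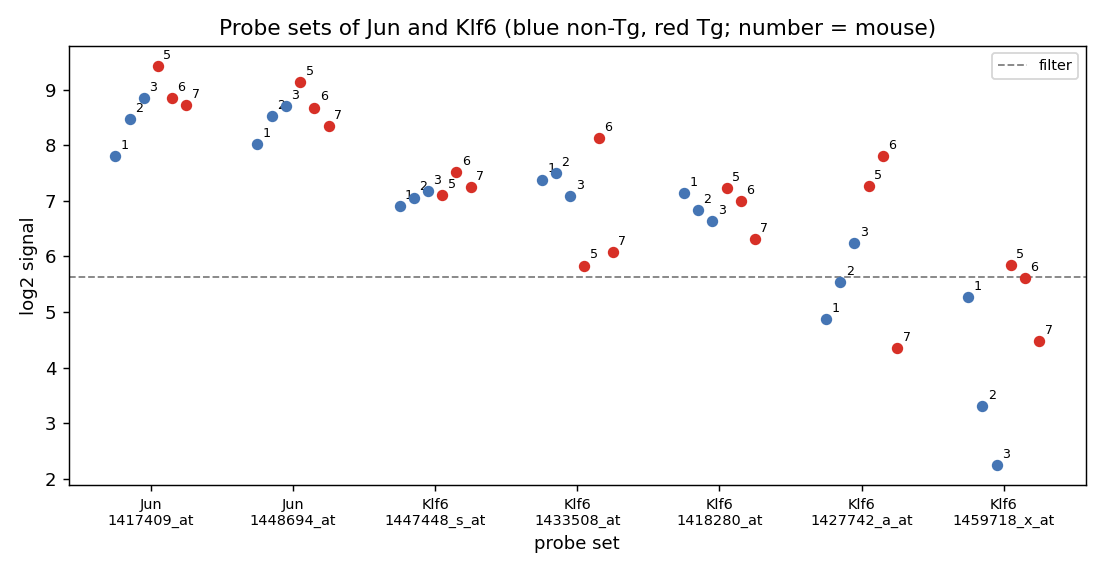
Log2 signal of the 2 probe sets of Jun and the 5 of Klf6 in each liver, blue for non-Tg and red for Tg with the number of the mouse; the dashed line is the brightness limit of 5.63. Both Jun probe sets have Tg 5 highest and non-Tg 1 lowest, whereas the Klf6 probe sets order the mice differently.

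Ier2 and Ier3 are small early response proteins without a kinship to each other; Ier2 is a nuclear protein and Ier3 bears on cell survival and ERK signalling. Ier2 was at 10.63, 10.24 and 9.93 in non-Tg and at 10.91, 10.21 and 9.88 in Tg livers. The groups covered nearly the same range, with Tg 5 highest and Tg 7 lowest, and the difference was 0.07 ± 0.27 (SE; limma adjusted p = 0.974). Its sign turned without Tg 5 (-0.22) and when each array was centred on its median (-0.0074). Ier3 was at 5.68, 6.55 and 6.35 in non-Tg and at 6.06, 6.02 and 7.00 in Tg livers, a difference of 0.17 ± 0.50 (SE; limma adjusted p = 0.964). It was the member with Tg 7 highest, and without Tg 7 its difference was -0.15.

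The members that end early signalling had the smallest p-values. Zfp36 encodes tristetraprolin, which binds AU-rich mRNAs such as those of cytokines and of early genes and speeds their decay. It was at 11.07, 10.92 and 11.18 in non-Tg and at 12.58, 11.85 and 11.34 in Tg livers. Every Tg liver lay above every non-Tg liver, with Tg 5 highest and Tg 7 close to non-Tg 3. The means were 11.92 ± 0.63 and 11.05 ± 0.13 (SD, n = 3 each), a difference of 0.87 ± 0.26 (SE), or 1.83-fold with a 95% confidence interval from 1.22 to 2.73 (limma p = 0.00750, adjusted p = 0.735; exact permutation p = 0.1). Without Tg 5 the difference was 0.54.

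Dusp1 encodes a nuclear phosphatase that switches off p38, JNK and ERK kinases and is induced by stress and by glucocorticoids. It was at 10.65, 10.54 and 11.54 in non-Tg and at 11.74, 12.49 and 11.47 in Tg livers. Tg 5 and Tg 6 lay above all non-Tg livers, and Tg 7 lay just under non-Tg 3. The means were 11.90 ± 0.53 and 10.91 ± 0.55 (SD, n = 3 each), a difference of 0.99 ± 0.30 (SE), or 1.99-fold with a 95% confidence interval from 1.25 to 3.17 (limma p = 0.00846, adjusted p = 0.735; exact permutation p = 0.2). It ran from 0.70 without Tg 6 to 1.31 without non-Tg 3.

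The members were highest in Tg 5, and Tg 7 was the Tg liver nearest to the non-Tg livers. Over the 9 tested members, Tg 5 was the highest of the 6 livers for 6, Tg 6 for 2 and Tg 7 for 1, and no non-Tg liver was the highest for any. The share of all tested genes highest in each liver was not counted, so this is not shown to be particular to the members. The array median was also highest in Tg 5, at 6.74 against 6.49 to 6.63 on the other arrays. As a mean over the 9 members of the log2 signal minus the mean of the 6 arrays, Tg 5 stood at 0.78 and Tg 6 at 0.32. Tg 7 stood at -0.37, and non-Tg 1, 2 and 3 at -0.21, -0.29 and -0.23. The place of Tg 7 rests on Fos, which is at 3.93 there, under the brightness limit. Without Fos, a choice made after seeing the data, Tg 7 stood at -0.077, above the non-Tg livers at -0.29, -0.32 and -0.21, and Tg 5 and Tg 6 stood at 0.65 and 0.24. By the median over the 9 members Tg 7, at -0.15, lay within the range of the non-Tg livers, from -0.31 to -0.11. Tg 7 lay above the non-Tg mean for 7 of the 10 genes. The SD was larger in Tg than in non-Tg livers for 7 of the 10 genes. For these counts too the share over all tested genes was not taken. The median within-group SD of the tested members was 0.51, against 0.27 over all tested genes. Without Tg 7 the median difference of the tested members was 0.76 in place of 0.29, and 5 members in place of 3 had an unadjusted limma p under 0.05, beside 9.39% of all tested genes; none passed. The count fell to 2 without non-Tg 2, without Tg 5, with the array sets described next as a block, with no intensity trend and with robust variance. Egr1 was no longer under 0.05 in these 5 settings, with unadjusted limma p from 0.0780 to 0.133, nor without non-Tg 3 (0.0716).

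**Figure D4:**
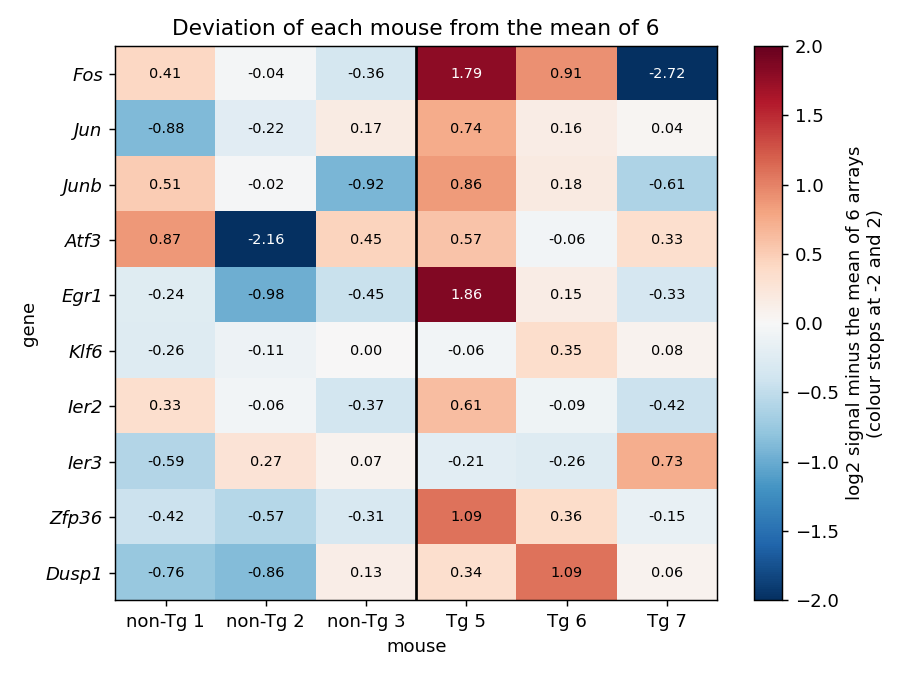
Log2 signal of each gene (rows) in each mouse (columns) minus the mean of the 6 arrays, printed in each cell and coloured from blue (lower) to red (higher); the black line parts non-Tg from Tg. Tg 5 is red for 8 of the 10 genes, with 1.86 for Egr1 and 1.79 for Fos, and Tg 7 ranges from -2.72 for Fos to 0.73 for Ier3.

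The arrays also fell into 2 sets by the bioC hybridisation control, which was seen in earlier work on these data. Non-Tg 1, Tg 5 and Tg 6 had a mean bioC log2 signal between 9.83 and 9.94, and non-Tg 2, non-Tg 3 and Tg 7 one between 11.21 and 11.45. Tg 5 and Tg 6 thus lie in a different set from Tg 7. Within the set of lower bioC the differences, Tg minus non-Tg, were 0.94 for Fos, 1.32 for Jun, 1.24 for Egr1, 1.15 for Zfp36 and 1.47 for Dusp1. In the higher set they were -2.52, 0.06, 0.38, 0.29 and 0.43 for the same genes. The other members differed less in the lower set, with 0.01 for Junb, -0.07 for Ier2, 0.36 for Ier3, 0.40 for Klf6 and -0.62 for Atf3. In the higher set these were at -0.14, -0.21, 0.55, 0.13 and 1.18. Each set has 1 mouse alone on 1 side. With the sets as a block the differences were -0.79 ± 0.73 for Fos, 0.69 ± 0.31 for Jun, 0.81 ± 0.43 for Egr1, 0.72 ± 0.24 for Zfp36 and 0.95 ± 0.33 for Dusp1 (SE), and none of the 9 passed (limma adjusted p from 0.721 to 0.978). The block left 6 of the 9 members higher in Tg livers in place of 8, against 50.7% of all tested genes, with Fos, Junb and Ier2 lower. Between the sets themselves the members differed by a median of -0.45, higher minus lower bioC, with Fos at -2.34 and Junb at -1.05. The Fos values of -2.52, -0.79 and -2.34 all include Tg 7, where Fos lay under the brightness limit. The part of this control in the members' differences was not tested.

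None of the tested relatives of the members passed. Of 9 other AP-1 subunits and partners 6 were bright enough to be tested, and 3 had a higher and 3 a lower mean in Tg livers, with a median log2 difference of 0.01. The 3 of smallest p were Jdp2, a Jun dimerization protein, at 0.71 ± 0.31, Jund at 0.61 ± 0.30 and Maff, a small MAF protein, at -0.43 ± 0.28 (SE; limma adjusted p from 0.807 to 0.826). Jund was highest in Tg 5, at 12.51, and at 11.16 in Tg 7, and as the mean over its probe sets its difference turned to -0.14. Fosb, Fosl1 and Batf lay under the limit.

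Of 15 further transcription factors of the early response 13 were tested. The mean was higher in Tg livers for 10, beside 52.1% of all tested genes, and the median difference was 0.38. Bhlhe40, a repressor tied to the clock and to hypoxia, had means of 10.98 (Tg) and 11.61 (non-Tg), a difference of -0.63 ± 0.17. Nfil3, a bZIP repressor, differed by 0.52 ± 0.18 and Klf10, a TGF beta early gene, by -0.84 ± 0.29 (SE; limma adjusted p from 0.735 to 0.782 for these 3). Bhlhe40 and Nfil3, but not Klf10, were without overlap between the groups. These genes were picked by smallest p. In the whole list 1 gene with Tg higher and 1 with Tg lower did not overlap, while 11.7% of all tested genes did not. Among 15 tested of 17 other early response genes 7 were higher and 8 lower, with a median of -0.01. Btg2, an antiproliferative gene, was at 10.07, 9.12 and 9.24 in Tg 5, 6 and 7 and at 8.70, 8.09 and 8.22 in the non-Tg livers, without overlap, a difference of 1.14 ± 0.28. Gadd45a, a growth arrest gene, differed by -1.33 ± 0.35 and Mcl1, a survival protein of the BCL2 family, by -0.38 ± 0.11 (SE), both without overlap; limma adjusted p for the 3 ran from 0.653 to 0.735. As the mean of its probe sets Mcl1 differed by -0.19. Btg2, Gadd45a and Mcl1 were likewise picked by smallest p. In their whole list 1 gene with Tg higher and 2 with Tg lower did not overlap, beside the same 11.7%.

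Of 18 other feedback inhibitors 17 were tested, 5 with a higher and 12 with a lower mean in Tg livers, with a median of -0.20. Dusp6, an ERK phosphatase, differed by -0.68 ± 0.20, Tnfaip3, the NF-κB inhibitor A20, by 1.02 ± 0.31, and Spred2, an inhibitor of RAS signalling, by -0.50 ± 0.17 (SE; limma adjusted p from 0.735 to 0.779), each without overlap between the groups. These genes were picked by smallest p. In the whole list 2 genes with Tg higher and 3 with Tg lower did not overlap, while 11.7% of all tested genes did not. Of 20 kinases and transcription factors that switch such genes on 17 were tested and 3 were not analysed here, with differences from -0.48 to 0.36 and a median of 0.11, and 0 had an unadjusted limma p under 0.05. Crtc2, a CREB coactivator, was at -0.48 ± 0.23, Mrtfb, an SRF coactivator, at 0.36 ± 0.17 and the MAP kinase kinase Map2k2 at 0.29 ± 0.18 (SE; limma adjusted p from 0.807 to 0.824). As means of their probe sets Crtc2 was at -0.12 and Map2k2 at 0.13. In these 5 lists 0 genes passed the limma test, while 11 had an unadjusted p under 0.05, all 11 among the 51 tested genes of the lists other than the upstream one; over all tested genes the share was 6.05%.

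Glucocorticoid-induced genes were set beside the members because Dusp1 and Zfp36 are known targets of that hormone. All 7 were tested, and 6 had a higher mean in Tg livers, beside 52.1% of all tested genes. The median difference was 0.70. Tat, tyrosine aminotransferase, had means of 14.98 (Tg) and 13.87 (non-Tg), a difference of 1.12 ± 0.24 (SE; limma adjusted p = 0.468), without overlap. The circadian gene Per1 differed by 0.50 ± 0.18 and Klf9 by -0.39 ± 0.13 (SE; limma adjusted p of 0.787 and 0.775), also without overlap. As the mean of its probe sets Klf9 differed by -0.07. Tat, Per1 and Klf9 were picked by smallest p. In the whole list 2 genes with Tg higher and 1 with Tg lower did not overlap, while 11.7% of all tested genes did not. None of the 7 passed, and 4 had an unadjusted limma p under 0.05, beside 6.05% of all tested genes. By mouse the mean deviation of the list was 0.70 in Tg 6, 0.50 in Tg 7 and -0.34 in Tg 5. Tg 6 was also the highest liver for Dusp1, while Tg 5 was the highest for Zfp36 and for the mean of the members. The part of the hormone in the members' differences was not tested.

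Hepatocyte markers were bright in all 6 livers, and the mean deviation of the 7 tested ones lay between -0.05 and 0.05 in each mouse. Markers of blood-derived and immune cells varied more. All 8 Kupffer cell markers had a higher mean in Tg livers, beside 52.1% of all tested genes, with a median of 0.26, and 0 passed. By mouse their mean deviation was 1.05 in Tg 6, 0.01 in Tg 5 and -0.61 in Tg 7, and from -0.19 to -0.09 in non-Tg livers. The markers vary together over the mice and are not separate observations. Their summed signal ran from 16511 to 42259 in Tg and from 20734 to 23849 in non-Tg livers, highest in Tg 6 and lowest in Tg 7. The 5 tested of 8 neutrophil markers summed to 293 to 761 in Tg and 428 to 648 in non-Tg livers, highest in Tg 5 and lowest in Tg 7. The 4 tested T and NK cell markers summed to 397 to 716 in Tg and 216 to 429 in non-Tg livers, and 3 of the 4 had a higher mean in Tg livers, with a median of 1.26. Among them Gzma, a granzyme named after its value was seen, differed by 1.39 ± 0.53 (SE; limma adjusted p = 0.787) without overlap. By mouse the mean deviation of this list ran from 0.03 to 1.07 in Tg and from -1.83, in non-Tg 2, to 0.09 in non-Tg livers. Those of the 5 tested bile duct markers summed to 306 to 546 in Tg and 408 to 690 in non-Tg livers, and those of the 8 endothelial markers 13575 to 15934 and 13831 to 15139. Stellate cell markers summed to 7865 to 11220 in Tg and 9534 to 12755 in non-Tg livers. Of the 7 tested 5 had a lower mean in Tg livers, with a median of -0.52, and 0 passed. An unadjusted limma p under 0.05 was found for 3 of the 7, beside 6.05% of all tested genes. Named after their values were seen, they were Lrat at -0.93 ± 0.26, Reln at -0.52 ± 0.17 and, in the opposite direction, Rgs5 at 0.81 ± 0.24 (SE; limma adjusted p from 0.735 to 0.770). In whole liver, more cells of a type and more RNA per cell cannot be told apart, and the part of these cells in the members' differences was not tested.

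**Figure D5:**
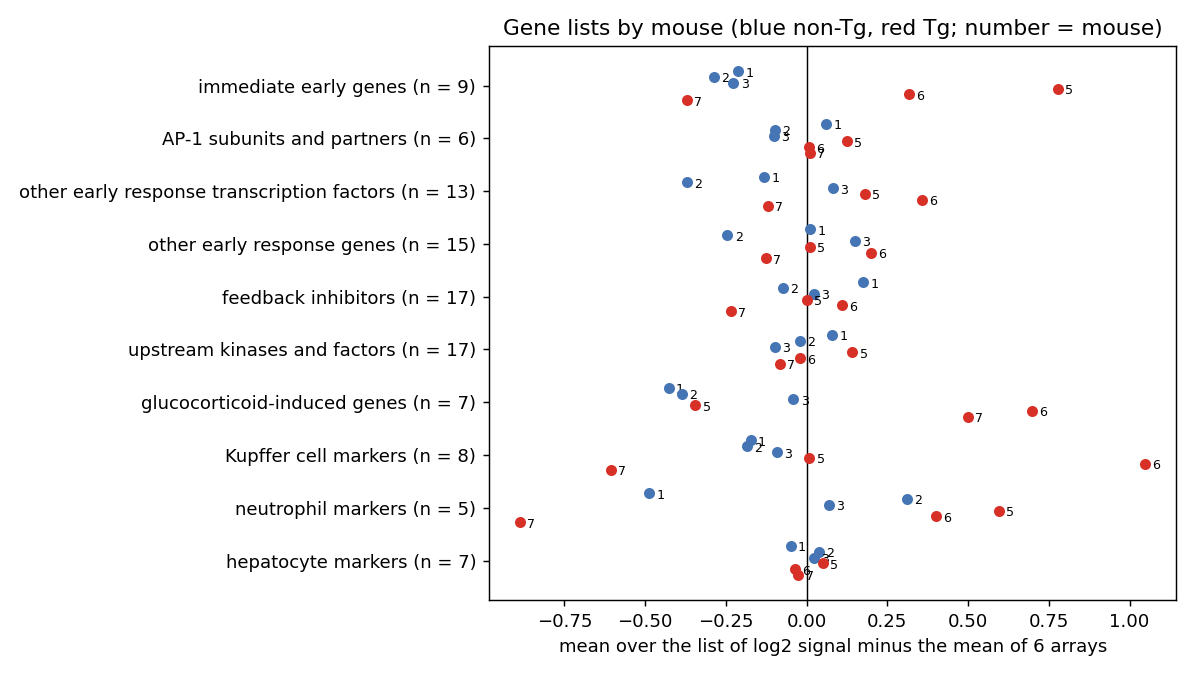
Mean deviation of 10 gene lists in each mouse on the horizontal axis, as the log2 signal minus the mean of the 6 arrays averaged over the tested genes of the list, blue for non-Tg and red for Tg with the number of the mouse. The immediate early genes spread from -0.37 in Tg 7 (-0.077 without Fos) to 0.78 in Tg 5, the Kupffer cell markers from -0.61 in Tg 7 to 1.05 in Tg 6, and the hepatocyte markers stay within 0.05 of 0.

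The genes outside all lists whose profile over the 6 arrays lay nearest to the mean profile of the 9 members, Fos included, by root mean square distance on the log2 scale, were Fxr2, an RNA-binding protein, at a distance of 0.10, Sftpd, surfactant protein D, at 0.10 and Wtip at 0.10. Their differences were 0.34 ± 0.25, 0.42 ± 0.40 and 0.35 ± 0.38 (SE; limma adjusted p from 0.841 to 0.873). Among the members Zfp36 lay nearest to that mean, which includes it, at 0.22, and Fos farthest, at 1.11.

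The transgene itself was seen on every array as labelled, with Retnla log2 signals of 15.91 to 16.04 in Tg and 6.03 to 7.41 in non-Tg livers. Array medians ran from 6.49 to 6.74, highest in Tg 5, and correlations between arrays over all probe sets from 0.881 to 0.891. Precision is limited by there being 3 arrays a group.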

How the data were processed

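Liver RNA of 6 mice was labelled with biotin as cRNA, starting with 5 µg per sample (per the labels' protocols), and hybridised to 1 array each. The authors deposited log2 signals for 45101 probe sets, made with GCOS, the Affymetrix array software, per the submitters' processing notes; version, algorithm and build: not given in the sources used here. Antilogged, the signals have the same mean, 500.0, on each array after trimming 2% at each end, so the arrays had been scaled. After 64 control probe sets were set aside, 34945 probe sets with 1 symbol were used; those with several symbols (932) or none (9160) were not. All 10 members matched a RefSeq gene by Entrez number (GRCm38.p6).

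A gene was tested when the mean of its brightest probe set exceeded 5.63 on the log2 scale, the 40th percentile of all probe sets; 12705 genes did. Groups were compared by limma 3.58.1 in R 4.3.3 (lmFit, eBayes with an intensity trend, 2-sided; 4 residual degrees of freedom, 9.61 after moderation), with Benjamini-Hochberg adjustment over all tested genes. SEs and intervals are those of this fit, with the following exceptions. Atf3 has those of the fit without the filter, and values with the array sets as a block have those of the fit with the block. SEs of the other probe sets of Jun and Klf6 come from a fit over all 34945 probe sets with 1 symbol. In that fit the SE of the chosen Klf6 probe set was 0.34. Each member was also put to an exact permutation test (20 ways to assign the mice, 2-sided). The procedure was also run on simulated data with independent noise for each gene and no array sets. That run does not cover the split of these arrays by bioC. Figures used matplotlib 3.10.9 under Python 3.11.15.

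The members and all lists were chosen with earlier results of these data known. Named are all members, the 3 genes of smallest p of each of 6 further lists, and the 3 genes nearest in profile; lists of markers are given as sums. Alternatives were 16 or 64 added before the log, other filters, quantile normalization, median centring, other moderation, array weights, the mean of a gene's probe sets, the bioC sets as a block, and leaving out each mouse and, for the means by mouse and added after seeing the data, Fos; probe sets were kept as chosen on the 6 arrays unless the filter or probe sets were the alternative.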

Additional observations from a re-analysis of the deposited data

How the results depend on the processing

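Under 18 alternatives 0 of the members passed the limma threshold, and their lowest adjusted p was 0.178; 2 to 5 had an unadjusted p under 0.05. Over all genes 2 passed as reported, and 2 to 6 under the alternatives: 4 with 16 added before the log, with robust variance or with the array sets as a block, 5 with arrays centred on the median, and 6 with 64 added or with a filter at the 20th percentile; leaving out single mice gave 2 to 3. The median difference of the tested members moved from 0.29 to 0.62 with a filter at the 60th percentile, which tests fewer members. Without single mice it ran from 0.31 to 0.76, highest without Tg 7. It was lowest, at 0.21, with arrays centred on the median, beside -0.06 over all tested genes. With quantile normalization it was 0.26. Egr1, Jun, Zfp36, Dusp1 and Klf6 kept their direction under all 18. For Klf6 this covers only the chosen probe set and the mean of its probe sets. Single other Klf6 probe sets, which no alternative used alone, went the other way, at -0.64 and -0.03. Fos turned to 0.18 and 0.29 with 16 and 64 added and to 0.22 with array weights, Junb to -0.065 and Ier2 to -0.14 with the array sets as a block, Ier2 to -0.0074 when centred, and Jund to -0.14 as the mean of probe sets; the cause was not tested. Without single mice the ranges were -0.91 to 1.35 for Fos, -0.10 to 0.66 for Junb, -0.22 to 0.30 for Ier2, -0.15 to 0.34 for Ier3 and -0.38 to 1.13 for Atf3. No paired analysis was possible because the groups share no replicate numbers. Without detection calls, dim members such as Atf3, Ier3 and Fos cannot be placed above background.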
